A study of Mus musculus with 16 samples.

Results

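Neutrophil granule genes were followed in sensory neurons of 4 kinds of ganglion. The set held 10 genes, *Mpo*, *Elane*, *Ngp*, *Camp*, *Ltf*, *Lcn2*, *Cd177*, *S100a8*, *S100a9* and *Retnlg*, of 22609 gene symbols counted, and each gene was found by its symbol in all 16 libraries. The genes were chosen by their measured counts in these libraries, with the differences between ganglia known, so their levels are given as a description, without a test.

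The cells came from trigeminal ganglia (TG), the nodose and jugular complex (NG/JG), lumbar dorsal root ganglia (L3-L5 DRG) and thoracolumbar dorsal root ganglia (T10-L1 DRG), with 4 libraries from each. All 4 groups came from naïve adult male C57BL/6J mice with a *Pirt* cre allele and a Rosa26 LSL-tdTomato allele (Pirt/TdTomato), so that cells that had used the *Pirt* promoter, a promoter of sensory neurons, glowed red. Mice were perfused with phosphate buffer, the ganglia of both sides were digested, and red cells were sorted in 2 rounds. No library of unsorted ganglion, blood or bone marrow entered the comparison. The labels do not say how many mice stood behind a library, so the spread between libraries may be partly technical.

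Neutrophils fill their granules in a fixed order while they ripen in bone marrow. Promyelocytes make the proteins of azurophil granules, myelocytes and metamyelocytes make those of specific granules, and late and circulating cells carry much cytosolic calprotectin. The messages for the azurophil proteins are largely gone from mature blood neutrophils, so that the set spans an early and a late end of granulocyte maturation. *Mpo* (myeloperoxidase, which makes hypochlorous acid) and *Elane* (neutrophil elastase, a serine protease) stood for the azurophil stage. *Ngp* (a cystatin-like granule protein), *Camp* (the cathelicidin antimicrobial peptide), *Ltf* (lactoferrin, which binds iron), *Lcn2* (lipocalin 2, which binds siderophores) and *Cd177* (a surface and granule protein) stood for the specific granules. *S100a8* and *S100a9* (the subunits of calprotectin) and *Retnlg* (a resistin-like secreted protein) stood for the late stage.

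Several of the genes are neighbours in the genome. In mm9, *Camp* (chr9:109749889-109751970), *Ngp* (chr9:110322254-110325514) and *Ltf* (chr9:110921796-110945270) follow each other on chromosome 9, with 570.3 kb and 596.3 kb between them. *S100a8* (chr3:90472993-90473956) and *S100a9* (chr3:90496554-90499643) are 22.6 kb apart on chromosome 3 and are read from opposite strands. *Mpo* is at chr11:87607083-87617915, *Elane* at chr10:79349057-79350961, *Lcn2* at chr2:32240153-32243317, *Cd177* at chr7:25529004-25545330 and *Retnlg* at chr16:48872721-48874611. None of the 10 shared exon sequence with another counted gene.

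The 250 bases before the start of 4 of the genes are shown because their counts separated the libraries most plainly below: both azurophil genes, *Ngp* for the specific granules and *S100a8* for the late stage. The sequences are those of RefSeq on GRCm38.p6, written 5′ to 3′ on the strand of the gene, at chr11:87793534-87793783 on the + strand for *Mpo*, chr10:79886062-79886311 on the + strand for *Elane*, chr9:110419558-110419807 on the + strand for *Ngp* and chr3:90668821-90669070 on the + strand for *S100a8*. Capitals mark matches on either strand to the letters of a TATA box (TATAAA), the core letters of a C/EBP site (TTNNGNAA) or those of a PU.1 site (GAGGAA).
Mpo: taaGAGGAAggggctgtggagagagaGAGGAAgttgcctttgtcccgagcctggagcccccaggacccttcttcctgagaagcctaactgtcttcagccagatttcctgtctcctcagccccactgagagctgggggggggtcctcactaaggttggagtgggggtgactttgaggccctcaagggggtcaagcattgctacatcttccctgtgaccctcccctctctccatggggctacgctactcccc
Elane: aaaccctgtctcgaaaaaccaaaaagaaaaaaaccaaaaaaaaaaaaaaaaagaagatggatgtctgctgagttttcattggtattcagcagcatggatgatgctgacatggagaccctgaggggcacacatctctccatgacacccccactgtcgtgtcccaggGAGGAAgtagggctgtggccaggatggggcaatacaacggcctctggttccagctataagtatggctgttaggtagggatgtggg
Ngp: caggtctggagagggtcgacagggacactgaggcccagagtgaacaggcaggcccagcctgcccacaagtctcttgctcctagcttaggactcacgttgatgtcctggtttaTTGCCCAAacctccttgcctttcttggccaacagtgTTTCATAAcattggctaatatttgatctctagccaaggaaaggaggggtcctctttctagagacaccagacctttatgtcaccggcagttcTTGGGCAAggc
S100a8: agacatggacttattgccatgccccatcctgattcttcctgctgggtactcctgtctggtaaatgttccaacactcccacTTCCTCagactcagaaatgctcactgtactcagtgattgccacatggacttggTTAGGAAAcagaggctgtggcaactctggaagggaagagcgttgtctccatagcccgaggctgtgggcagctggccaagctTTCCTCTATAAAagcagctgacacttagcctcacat
C/EBP factors and PU.1 are the main transcription factors of granulocyte development. GAGGAA was found 2 times in the *Mpo* window and once in that of *Elane*, and neither window held TTNNGNAA or TATAAA. The *Ngp* window held TTNNGNAA 3 times and neither other motif, while that of *S100a8* held all 3 kinds, with a PU.1 match and the TATA box side by side and no overlap between them. Over the 10 genes, TTNNGNAA was present in 7 windows, GAGGAA in 6 and TATAAA in 2 (*Cd177* and *S100a8*), and the *Camp* window held none of them. Among 32851 RefSeq windows of the same length, 36.8%, 23.3% and 12.4% held these letters. A match of letters is not evidence of binding.

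The summed level of the 10 genes, as counts scaled to a common number of reads on genes (CPM), was highest in T10-L1 DRG and lowest in NG/JG. In T10-L1 DRG libraries 1 to 4 it was 699, 481, 104 and 1147 CPM, a mean of 608 ± 435 (SD, n = 4). In L3-L5 DRG it was 655, 7.25, 150 and 413 CPM, a mean of 306 ± 287 (SD, n = 4). Every T10-L1 DRG library therefore stood above every TG and NG/JG library, whereas library 2 of L3-L5 DRG stood below 2 TG libraries. In TG the sums were 0.381, 46.2, 51.4 and 4.21 CPM (25.6 ± 27.0, SD, n = 4), and in NG/JG they were 7.23, 0.569, 47.3 and 0.620 CPM (13.9 ± 22.4, SD, n = 4). Without NG/JG library 3 the NG/JG mean was 2.81 CPM, and without L3-L5 DRG library 1 the L3-L5 DRG mean was 190 CPM. Neighbours in this order had overlapping ranges. In bulk RNA, fewer cells of a type and less RNA per cell cannot be told apart.

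Depth was 4735624 to 13333318 reads on genes per library, so that 3 counts, used as the floor of detection, corresponded to 0.225 to 0.633 CPM. Reads of unique position that lay in no gene made up 29.6% to 66.6%, the highest share in L3-L5 DRG library 4. Intervals and floors cover counting error only.

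**Figure D1:**
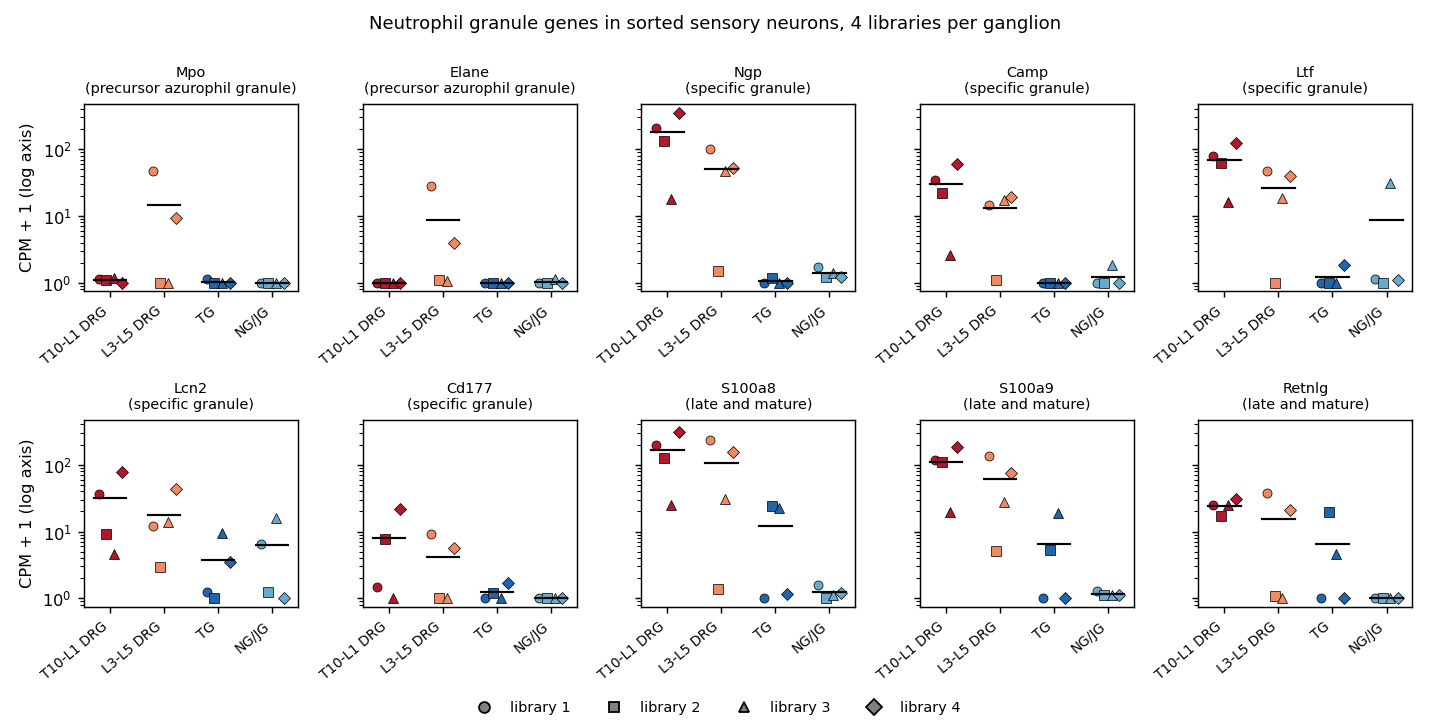
CPM + 1 on a log axis for each of the 10 genes in the 16 libraries, 4 per ganglion, with symbols for libraries 1 to 4 and a bar at the mean. *Mpo* and *Elane* leave the floor in L3-L5 DRG libraries 1 and 4, while *Ngp* and *Camp* lie above 1 CPM in every T10-L1 DRG library and in 3 of 4 L3-L5 DRG libraries.

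The azurophil genes were present in 2 of the 16 libraries. *Mpo* had 479, 0, 0 and 39 counts in L3-L5 DRG libraries 1 to 4, which is 46.6 CPM in library 1 and 8.24 CPM in library 4. *Mpo* had 1, 1, 2 and 0 counts in T10-L1 DRG, 1, 0, 0 and 0 in TG and 0 in all 4 NG/JG libraries. *Elane* followed the same libraries, with 282, 1, 1 and 14 counts in L3-L5 DRG, no count in T10-L1 DRG or TG and a single count in NG/JG library 3. Of the 14 other libraries, none exceeded 2 counts of either gene, and the T10-L1 DRG libraries that were rich in other granule genes were among them. Summed over libraries, T10-L1 DRG had 4 *Mpo* counts and L3-L5 DRG 518, a ratio of 0.00676 after scaling to reads on genes (95% interval 0.00183 to 0.0174). Without library 1 of L3-L5 DRG, 39 of those 518 *Mpo* counts were left.

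Of the specific granule genes, *Ngp*, *Camp* and *Ltf* each stood above 1 CPM in 7 of the 8 DRG libraries. *Ngp* stood at 210, 134, 17.0 and 351 CPM in T10-L1 DRG libraries 1 to 4 (178 ± 140, SD, n = 4) and at 99.8, 0.496, 46.9 and 51.9 CPM in L3-L5 DRG (49.8 ± 40.6, SD, n = 4). In TG a single *Ngp* read was counted over all 4 libraries, and NG/JG had 5, 2, 3 and 2 counts. The *Ngp* level per read on genes was 494 times as high in T10-L1 DRG as in NG/JG (95% counting interval 282 to 956, 7663 against 12 counts). *Camp* gave the same picture at a lower level, with 33.3, 21.3, 1.64 and 58.4 CPM in T10-L1 DRG and 13.8, 0.0992, 16.4 and 18.4 CPM in L3-L5 DRG. *Camp* was not counted in any TG library and reached 6 counts in NG/JG library 3 alone. With counts summed over libraries, T10-L1 DRG was at least 238-fold higher than TG, against a floor of 3 counts over the group. Of its 1240 *Camp* counts 778 came from library 4, so this bound does not hold for each library. *Ngp* and *Camp* in every T10-L1 DRG library lay above all TG and NG/JG libraries.

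*Ltf* separated T10-L1 DRG from TG but not from NG/JG. It stood at 79.2, 60.7, 15.5 and 121 CPM in T10-L1 DRG and at 46.2, 0, 17.6 and 38.0 CPM in L3-L5 DRG. TG had 0, 0, 0 and 5 counts. In NG/JG the counts were 1, 0, 220 and 1, and the 220 counts of library 3 (30.4 CPM) lay above T10-L1 DRG library 3. *Lcn2*, which many tissues outside the neutrophil lineage can also make, was the least restricted of the set. *Lcn2* was at 35.0, 8.28, 3.62 and 76.3 CPM in T10-L1 DRG, at 11.1, 1.98, 12.8 and 41.6 CPM in L3-L5 DRG, at 0.254, 0, 8.42 and 2.46 CPM in TG and at 5.56, 0.228, 15.2 and 0 CPM in NG/JG. All 4 ganglia overlapped in *Lcn2*. *Cd177* had 3, 70, 0 and 280 counts in T10-L1 DRG and 83, 0, 0 and 22 in L3-L5 DRG. TG had 0, 1, 0 and 4 counts of *Cd177* and NG/JG none, so that *Cd177* was carried in L3-L5 DRG by the same libraries as *Mpo*, 1 and 4, and besides them by T10-L1 DRG libraries 2 and 4.

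The calprotectin genes had the highest group means of the set per exon length in both DRG groups and in TG. *S100a8* stood at 199, 124, 23.7 and 307 CPM in T10-L1 DRG libraries 1 to 4 and at 230, 0.397, 29.6 and 155 CPM in L3-L5 DRG. In TG it had 0, 117, 126 and 1 counts, or 23.0 and 21.6 CPM in libraries 2 and 3, and in NG/JG it had 4, 0, 1 and 2 counts. Libraries 2 and 3 of TG thus came close to T10-L1 DRG library 3 in *S100a8*, while they held 1 and 0 counts of *Ngp*. *S100a9* stood at 118, 110, 18.7 and 183 CPM in T10-L1 DRG and at 136, 4.07, 26.4 and 72.9 CPM in L3-L5 DRG. TG libraries 2 and 3 held 4.33 and 17.7 CPM of *S100a9*, TG libraries 1 and 4 held none, and NG/JG had 1 or 2 counts in each library. L3-L5 DRG library 2, with 41 counts of *S100a9* and 4 of *S100a8*, and TG library 2, with 22 and 117, departed from their shared course. Per exon length, *S100a8* was 0.130 and 7.08 times *S100a9* there. It was 1.49 to 2.83 times *S100a9* in the other libraries with more than 3 counts of each.

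*Retnlg* varied least among T10-L1 DRG libraries. It was at 23.8, 16.1, 24.0 and 29.7 CPM there (23.4 ± 5.59, SD, n = 4), and the third library, which was lowest in *Ngp*, *Camp*, *Ltf*, *S100a8* and *S100a9*, was not low in *Retnlg*. L3-L5 DRG had 376, 1, 0 and 95 counts, TG had 0, 94, 21 and 0, and NG/JG had none in any library. With counts summed over libraries, T10-L1 DRG was at least 261-fold higher than NG/JG in *Retnlg*, against a floor of 3 counts over the group. L3-L5 DRG library 3 held 1816 reads of the 10 genes and no *Retnlg* read, nor any of *Cd177* or *Mpo*.

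Per exon length, in CPM per kilobase of exon (RPKM), the order within T10-L1 DRG was *S100a8* (417 ± 305 RPKM), *S100a9* (206 ± 129), *Ngp* (146 ± 115), *Camp* (47.7 ± 39.5), *Retnlg* (38.5 ± 9.19), *Ltf* (25.2 ± 15.9), *Lcn2* (13.4 ± 14.5) and *Cd177* (2.59 ± 3.61, all SD, n = 4). This order held within libraries 1, 2 and 4, and in library 3 *Retnlg* stood above *S100a9* and *Ltf* above *Camp*. In L3-L5 DRG *S100a8* (264 ± 275 RPKM) and *S100a9* (114 ± 112) again led, and *Elane* (8.31 ± 14.4) and *Mpo* (4.00 ± 6.50) stood near *Ltf* (9.28 ± 7.59) and *Lcn2* (7.32 ± 7.45).

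The make-up of the set differed between libraries that had at least 50 reads of it, which were 12 of the 16. *Mpo* and *Elane* made up 11.3% of these reads in L3-L5 DRG library 1 (761 of 6739, exact binomial 95% interval 10.5% to 12.1%) and 2.71% in library 4 (53 of 1957, 2.04% to 3.53%). In L3-L5 DRG libraries 2 and 3 a single such read gave 1.37% of 73 reads and 0.0551% of 1816. In T10-L1 DRG the share ran from 0 of 15291 reads, with an exact 95% interval up to 0.0241%, to 0.158%. The azurophil share of L3-L5 DRG averaged 3.86% ± 5.07 (SD, n = 4), or 1.38% without library 1. TG libraries 2 and 3 had none in 235 and 299 reads, with exact 95% intervals up to 1.56% and 1.23%, so that a share like that of L3-L5 DRG library 4 was not found there.

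The 5 specific granule genes took 47.5% ± 8.03 of these reads in T10-L1 DRG (36.2% to 54.7%, SD, n = 4) and 40.7% ± 15.2 in L3-L5 DRG (27.3% to 62.6%, SD, n = 4). In TG they took 0.851% of library 2 and 16.4% of library 3, and all 49 such reads of library 3 were *Lcn2*. For *Ngp*, *Camp* and *Ltf* alone, a subset picked after the values were seen, the share was 42.5% ± 6.53 in T10-L1 DRG and 28.2% ± 19.0 in L3-L5 DRG (SD, n = 4). In TG library 2 it was 0.426% (1 of 235 reads, interval 0.0108% to 2.35%) and in TG library 3 it was 0 of 299 reads (interval up to 1.23%). The lowest share of these 3 genes in a DRG library was 8.22% (6 of 73 reads, interval 3.08% to 17.0%) in L3-L5 DRG library 2. TG library 4, with too few reads to be included, had 5 such reads of 24, all *Ltf*. Reads of the set in TG libraries 2 and 3 were thus almost all *S100a8*, *S100a9*, *Retnlg* and *Lcn2*. The 2 NG/JG libraries with enough reads were the reverse, with 88.5% of 52 reads and 99.1% of 342 reads in the specific granule genes, but through *Lcn2* in library 1 (40 reads) and through *Ltf* and *Lcn2* in library 3. Per exon length the specific granule share came to 23.3% in T10-L1 DRG and 19.9% in L3-L5 DRG, since the calprotectin transcripts are short.

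**Figure D2:**
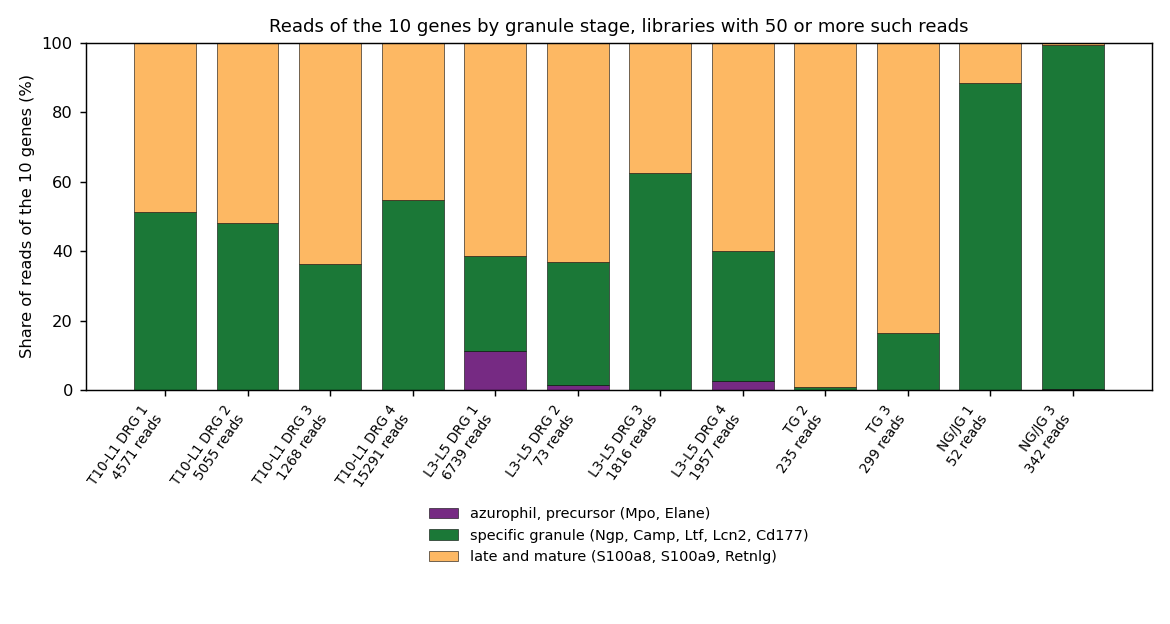
Share of the reads of the 10 genes, in percent, that fell in azurophil, specific granule and late genes, for the 12 libraries with 50 or more such reads (number of reads under each bar). The azurophil part is visible in L3-L5 DRG libraries 1 (11.3%) and 4 (2.71%), and TG library 2 consists almost wholly of late genes.

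The ganglia were next set against each other library by library. A gene was counted as not overlapping when all 4 CPM values of 1 ganglion lay above all 4 of the other and each library of the higher ganglion had more than 3 counts. T10-L1 DRG was above TG in this way for 5 of the 10 genes (*Ngp*, *Camp*, *Ltf*, *S100a8* and *S100a9*) and below TG for none, where 13.2% and 5.3% of all genes tested were. T10-L1 DRG was above NG/JG for 5 of the 10 (*Ngp*, *Camp*, *S100a8*, *S100a9* and *Retnlg*) and below it for none, where 6.41% and 1.63% of all genes tested were. L3-L5 DRG was above TG for *Ngp* alone (12% of all genes tested) and above NG/JG for *S100a9* alone (5.74%), and below either for none (3.96% and 1.59%). Library 2 of L3-L5 DRG was at or near the floor for most of the set. None of the 10 was free of overlap between T10-L1 DRG and L3-L5 DRG (1.53% and 2.17% of all genes tested, higher and lower) or between TG and NG/JG (5.13% and 4.49%). With all 8 DRG libraries against all 8 cranial ones, none was free of overlap either (0.464% and 0.0702%). The shares cover only genes that passed a filter on low counts, which not all of the 10 did. Against T10-L1 DRG, 7 of the 10 passed it with TG, 7 with NG/JG and 8 with L3-L5 DRG. In L3-L5 DRG 4 passed against TG and 3 against NG/JG, and in TG against NG/JG 1 passed. The genes were picked with these contrasts known, and nothing is read from their counts against those shares. The comparisons with TG and NG/JG share the same DRG libraries and are not independent of each other.

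Genes outside the 10 were compared by a test. Their lists were also chosen with earlier results of these data known, so the counts and medians below are not independent of that choice. Only genes that passed a filter on low counts were tested. A gene near 0 in 1 group passed it only through the other group, which fixed its direction beforehand. Nothing is therefore read from these counts and medians against those of all genes. The 4 lists held 45 genes, namely 8 precursor and azurophil genes, 12 specific and gelatinase granule genes, 5 subunits of the NADPH oxidase and 20 genes of mature neutrophils. These genes were tested with all other genes by edgeR's quasi-likelihood test with Benjamini-Hochberg adjustment. With both DRG groups against both cranial groups (16 libraries), 36 of the 45 could be tested. Of these, 2 were higher in DRG and 1 was lower at an adjusted p under 0.05, against 0.871% and 0.59% of 14236 genes. In the same contrast *Avil*, a marker of sensory neurons, was higher (2.28 ± 0.46 on the log2 scale, SE, edgeR adjusted p = 0.0299). *Fabp7*, of satellite glia, was lower (−1.32 ± 0.28, SE, edgeR adjusted p = 0.0334), and the part of these 2 genes in the other calls was not tested. They do not stand for their lists. In T10-L1 DRG against TG the glial genes *Cdh19* and *Mbp* went opposite ways (1.96 and −2.07, edgeR adjusted p = 0.0374 and 0.0460). The neuron markers *Tubb3* and *Uchl1*, chosen after their values were seen, differed in sign there without a call (0.39 and −0.67). In DRG against cranial ganglia *Chi3l3*, a chitinase-like protein secreted by neutrophils and macrophages, rose by 6.54 ± 1.53 on the log2 scale (SE, edgeR adjusted p = 0.0408). *Mmp25*, a membrane-bound metalloproteinase of neutrophils, rose by 4.38 ± 1.05 (SE, edgeR adjusted p = 0.0467). *Cd63*, a tetraspanin of azurophil granules that is also in lysosomes of most cells, fell by 1.42 on the log2 scale (SE 0.30, edgeR adjusted p = 0.0301). At an unadjusted p under 0.05 the list had 16 genes higher and 2 lower in DRG of 36 tested, beside 9.94% and 6.48% of all genes, and its median difference was 2.23 on the log2 scale, beside 0.08 for all genes.

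*Chi3l3* shared part of the course of the 10 genes. It had 243, 221, 0 and 469 counts in T10-L1 DRG, 138, 0, 19 and 21 in L3-L5 DRG, and 0 to 3 in each TG and NG/JG library. *Mmp25* did not, since it was highest where the 10 genes were low or moderate: 20.8, 73.4, 87.4 and 0.422 CPM in L3-L5 DRG libraries 1 to 4, 5.20 to 20.3 CPM in T10-L1 DRG and 20.1 CPM in TG library 1. *Cd63* was at 318 to 742 CPM in TG, 199 to 423 in NG/JG, 74.9 to 234 in L3-L5 DRG and 196 to 254 CPM in T10-L1 DRG. The 3 calls depended on the libraries used. None was left without TG library 2, 3 or 4, without L3-L5 DRG library 2 or 3 or without any of the 4 T10-L1 DRG libraries in turn, and 1 was left without NG/JG library 2 or 4 or without L3-L5 DRG library 1. Calls over all genes, 208 with every library, ran from 9 to 690 with a library left out.

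**Figure D3:**
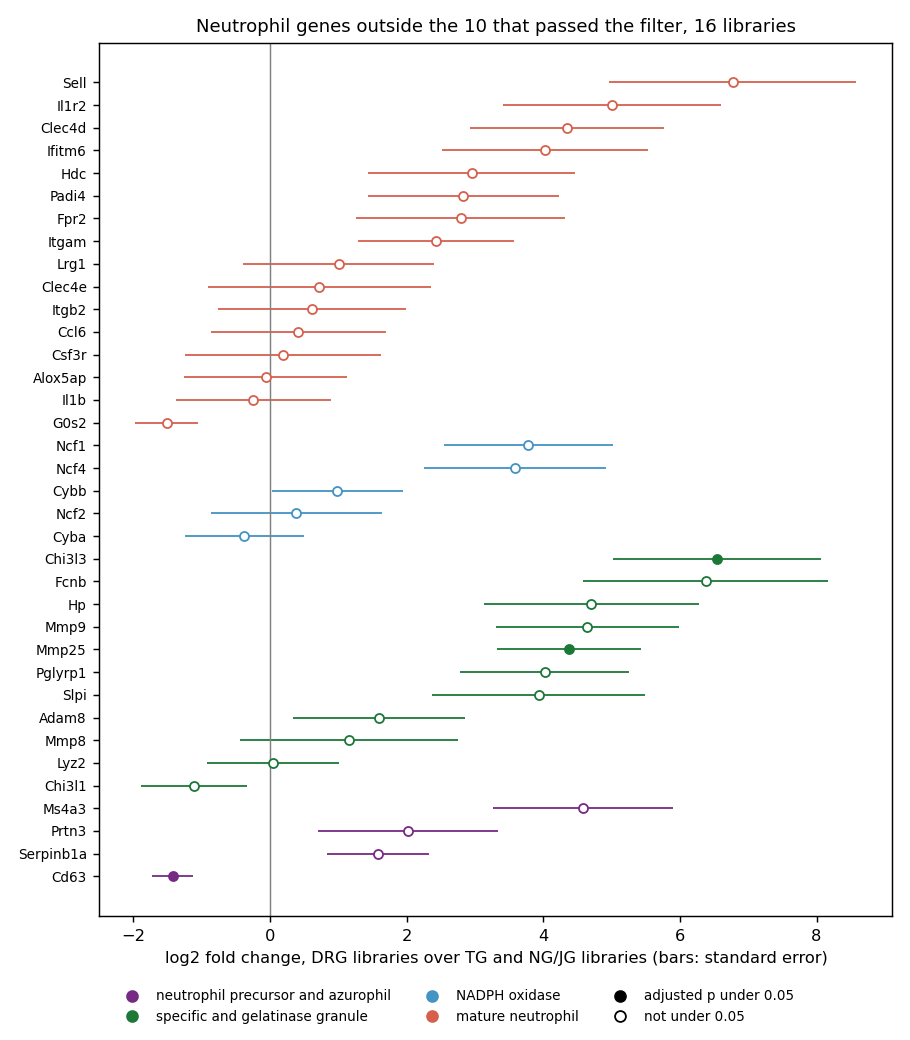
Difference between both DRG groups and both cranial groups on the log2 scale, with its standard error, for the 36 neutrophil genes outside the 10 that could be tested in 16 libraries, coloured by list. Filled points passed an adjusted p of 0.05, and they are *Chi3l3* and *Mmp25* to the right and *Cd63* to the left.

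In pairs of ganglia, 2 of the 45 genes passed, both in T10-L1 DRG against TG (26 tested). *Mmp9*, the enzyme that gelatinase granules are named for, rose by 4.08 ± 1.00 on the log2 scale (SE, edgeR adjusted p = 0.0432), where 1.54% of all genes were called higher. *Mmp9* was at 35.2, 22.8, 19.3 and 45.9 CPM in T10-L1 DRG and at 0.127, 0.590, 3.44 and 1.40 CPM in TG, without overlap, and at 49.9, 0.0992, 0 and 12.5 CPM in L3-L5 DRG. *Cd63* fell by 1.81 on the log2 scale (SE 0.35, edgeR adjusted p = 0.0254), where 4.33% of all genes were called lower. These 2 calls (of 758 among 12914 genes) became 4 without TG library 1 (of 3583 among 13410), 1 without T10-L1 DRG library 4 (of 119 among 13206) and 0 without any other library of the pair (of 0 or 1), so that they moved with the calls over all genes. In this pair the list had 3 genes higher and 3 lower at an unadjusted p under 0.05 (8.78% and 12.9% of all genes), and its median was 0.65 beside 0.03 for all genes.

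In T10-L1 DRG against NG/JG, edgeR called none of the 26 genes tested, where it called 0.0322% of all genes higher, and DESeq2 called 8, where it called 388 of 12430 genes in all. At an unadjusted p under 0.05, 9 of the 26 were higher in T10-L1 DRG and 1 lower, beside 4.06% and 1.85% of all genes, with a median of 2.18 beside −0.02. In 3 of the pairs edgeR called no gene of the whole table (0% of 12240, 12900 and 13550), so that a count of 0 there does not set the list apart. In L3-L5 DRG against NG/JG edgeR called 0 of 16 and DESeq2 1 (334 of 12240 genes in all), and 1 gene was higher and 2 were lower at an unadjusted p under 0.05 by edgeR (3.68% and 2.35% of all genes), with a median of 0.85. In L3-L5 DRG against TG edgeR called 0 of 23 and DESeq2 4 (1469 of 12900 genes in all), and 0 genes were higher and 4 lower at an unadjusted p under 0.05 by edgeR (8.02% and 10.1%), with a median of −0.81. In T10-L1 DRG against L3-L5 DRG edgeR and DESeq2 both called 0 of 34 (DESeq2 40 of 13550 genes in all), and 1 gene was higher and 0 lower at an unadjusted p under 0.05 by edgeR (2.72% and 3.35%), with a median of 0.98. In TG against NG/JG edgeR called 0 of 17 (0.034% and 0.017% of all genes, higher and lower) and DESeq2 3 (460 of 11769 genes in all), and 4 genes were higher and 0 lower at an unadjusted p under 0.05 by edgeR (5.54% and 4.49%), with a median of 1.57. In L3-L5 DRG against TG the count was 2 without TG library 1 (of 2038 called among 13365 genes), and in TG against NG/JG it was 1 without NG/JG library 1 (of 31 among 12457). These counts and medians cover the genes that passed the filter on low counts in each pair, some of them only through the ganglion where they were high.

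Early genes outside the 10 differed in their distribution. *Prtn3* and *Ctsg*, proteases of the azurophil granule that were chosen here after their values were seen, had 52, 0, 38 and 15 counts and 67, 0, 0 and 6 counts in L3-L5 DRG. They had 2 and 0 counts over the 4 T10-L1 DRG libraries, and TG library 4 had 14 *Prtn3* counts. *Ctsg* was thus above 3 counts in the libraries with *Mpo* and *Elane*, and *Prtn3* in others as well. *Ms4a3*, a membrane protein of granulocyte and monocyte progenitors, stood at 3.99, 23.7, 6.51 and 0.422 CPM in L3-L5 DRG and 1.38 to 9.90 CPM in T10-L1 DRG, so that it was highest in a library without *Mpo*. The transcription factors *Gfi1* and *Cebpe*, also chosen afterwards, did not exceed 2 and 10 counts in any library. *Serpinb1a*, an inhibitor of neutrophil proteases, was at 0.984 to 90.5 CPM in TG and 6.52 to 17.3 CPM over the 8 DRG libraries, and NG/JG had at most 2 counts.

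The most abundant genes of the other lists had a wider distribution than the 10. *Lyz2*, lysozyme of neutrophils and macrophages, averaged 1312 CPM in T10-L1 DRG, 664 in L3-L5 DRG, 1526 in TG and 385 in NG/JG. *Il1b* averaged 330, 77.0, 288 and 90.2 CPM in the same order, *Alox5ap* 60.5, 29.5, 102 and 14.2 CPM, and *G0s2* 217, 64.4, 295 and 258 CPM. Macrophages also use the oxidase subunits *Cyba* (100.5, 39.8, 209 and 22.3 CPM) and *Cybb* (132, 54.6, 56.5 and 25.9 CPM). *Cyba* had its highest mean in TG. *Cybb* was highest in T10-L1 DRG, and its means in L3-L5 DRG and TG were nearly the same. Their partner *Ncf1* averaged 59.2, 25.7, 6.02 and 1.00 CPM, the same order of ganglia as the granule genes. *Chi3l1*, a chitinase-like protein, averaged 10.3, 15.8, 8.56 and 58.8 CPM and was highest in NG/JG, where the granule genes were lowest.

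Markers of macrophages ran with the 10 genes in some libraries and apart from them in others. All 10 monocyte and macrophage markers were in the counted set, with 8 to 10 of them above 3 counts in each DRG and TG library and 5 to 8 in NG/JG, and none of the 10 was at 0 throughout. Their summed level was 584, 679, 821 and 13248 CPM in T10-L1 DRG libraries 1 to 4 and 5412, 77.2, 75.1 and 536 CPM in L3-L5 DRG. It was 3300, 2151, 1718 and 6416 CPM in TG and 2782, 27.7, 16.7 and 214 CPM in NG/JG. TG therefore exceeded 3 of 4 T10-L1 DRG libraries in macrophage markers while all TG libraries were below them in the granule genes. *C1qb*, a complement gene of macrophages, stood at 2432 CPM in TG library 4, where *S100a8* was at 0.176 CPM (1 count). It stood at 156 CPM in T10-L1 DRG library 2, where *S100a8* was at 124 CPM (1306 counts). The libraries highest in these markers within each DRG group, T10-L1 DRG 4 and L3-L5 DRG 1, were also highest there in the summed granule genes, and their part in that difference was not tested. NG/JG library 1 held 174 counts of *Mmp8*, a collagenase of specific granules, and 401 of *Csf3r*, the receptor for granulocyte growth factor, both chosen after their values were seen, with 4 counts of *S100a8* and no *Retnlg*.

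**Figure D4:**
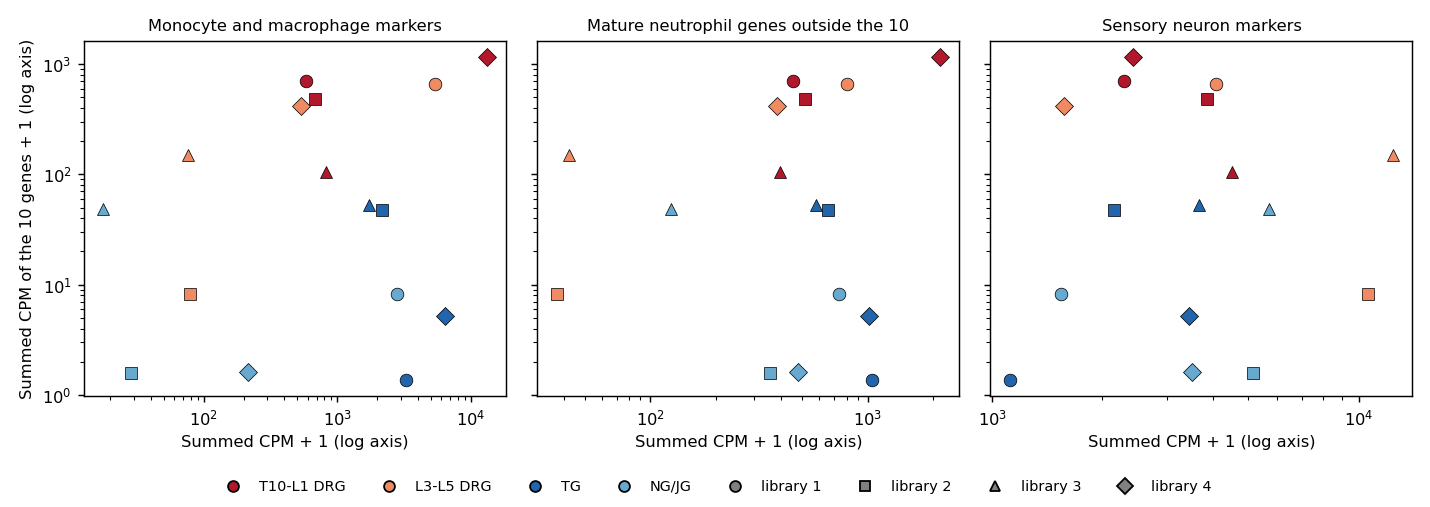
Summed CPM + 1 of the 10 granule genes (vertical, log axis) against the summed CPM + 1 of 10 monocyte and macrophage markers, 20 mature neutrophil genes outside the 10 and 8 sensory neuron markers (horizontal, log axes), 1 point per library, coloured by ganglion and shaped by library number. TG libraries lie at 1718 CPM or more of macrophage markers and at 51.4 CPM or less of granule genes. T10-L1 DRG libraries 1 to 3 lie at 584 to 821 and 104 to 699, and library 4 lies at 13248 and 1147.

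Markers of other blood and marrow lineages were counted in the same libraries. Globin genes (*Hba-a1*, *Hba-a2*, *Hbb-b1* and *Hbb-b2*) were listed at 0 in every library. Reads with more than 1 position were not counted, so that these 0 values of near-identical genes do not show that globin RNA was absent. The erythroid list, 9 of 10 genes found, summed to 0 to 39.5 CPM, mostly *Alas2*, an enzyme of haem synthesis. The B lineage list (8 of 8 found) was above 3 counts for 4 and 7 genes in L3-L5 DRG libraries 1 and 4, the libraries with *Mpo* and *Elane*, and for 0 to 3 genes in every other library. Its sum was 20.3 and 22.6 CPM there, 17.8 CPM in T10-L1 DRG library 4 and 24.2 CPM in TG library 4, mostly *Cd79b*, a subunit of the B cell receptor, and their part in the *Mpo* and *Elane* counts was not tested. L3-L5 DRG library 4 had the most genes with any count of all libraries (18571) and the largest share of reads in no gene (66.6%). It also had 4 T and NK genes above 3 counts, so that its detection of other lineages was broad. The T and NK list ran from 0 to 34.4 CPM and was highest in TG library 1, where *Cd3g*, a T cell receptor subunit, gave all of it. The list of eosinophil, basophil and mast cell genes summed to 25.6 CPM in TG library 2 (130 counts, of which 116 were *Mcpt4*, a mast cell protease), 11.6 CPM in L3-L5 DRG library 4 and 3.98 CPM or less elsewhere, and its members *Epx* and *Mcpt8* had at most 2 counts in any library. *Pf4*, of platelets and some macrophages, led the megakaryocyte list, which reached 692 CPM in T10-L1 DRG library 4, 491 CPM in TG library 4, 388 CPM in L3-L5 DRG library 1 and 189 CPM in TG library 2. The cell division list was at 8.71 to 52.7 CPM and highest in NG/JG library 4, where the granule genes summed to 0.620 CPM.

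The labelled cell type was checked in the same libraries. All 8 sensory neuron markers had more than 3 counts in every library, with sums of 1115 to 12438 CPM. *Mbp*, a myelin protein gene of Schwann cells and the most abundant gene of the glial list, was at 2643 to 32546 CPM in these sorted samples. The neuron marker sums were 2285, 3854, 4514 and 2421 CPM in T10-L1 DRG libraries 1 to 4. In L3-L5 DRG they were 4077, 10621, 12438 and 1572 CPM. T10-L1 DRG library 3 and L3-L5 DRG libraries 2 and 3 were thus the highest of their group. Their granule sums, 104, 7.25 and 150 CPM, were the lowest of their group. In TG and in NG/JG, library 3 was highest in both sums (3669 and 5685 CPM of neuron markers). The part of neuron content in the granule sums was not tested.

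Among 13589 genes with at least 5 CPM in at least 2 libraries, the 10 whose log2(CPM + 1) followed the mean of the granule genes most closely over the 16 libraries had Pearson's r of 0.88 to 0.92. They were *Gemin4*, *4931414P19Rik*, *Chi3l3*, *Il1r2*, *Mmp9*, *Plag1*, *Gm7694*, *Slc25a45*, *Fut4* and *Dennd2c*. Of these, *Chi3l3*, *Il1r2* (a decoy receptor for interleukin 1) and *Mmp9* were on the neutrophil lists, and *Fut4* makes the Lewis X sugar carried by myeloid cells. *Gemin4*, of the complex that assembles spliceosomal particles, was at 9.95 to 23.7 CPM in T10-L1 DRG and 3.08 to 23.9 CPM in L3-L5 DRG, and at most 3.26 CPM in TG and 0.691 CPM in NG/JG. *Slc25a45*, a mitochondrial carrier, was at 9.04 to 53.6 CPM in T10-L1 DRG and 5.36 to 51.5 CPM in L3-L5 DRG, at 0.127 to 10.9 CPM in TG and not counted in NG/JG. The points of these correlations share libraries, depth and a split between DRG and cranial ganglia, and leaving out a library in turn kept 4 to 10 of the 10 names.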

How the data were processed

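The authors sorted TdTomato-positive sensory neurons by FACS from 4 kinds of ganglion (4 libraries each, 16 libraries) and sequenced their oligo dT SMART-seq2 cDNA as 50 bp single reads. They aligned the reads to mm9 with TopHat2 and used HTSeq-count to count them by gene symbol. What the authors deposited are these raw, whole-number counts, one file per library and not normalized. Gene annotation, strand setting and versions are not given in the sources used here.

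CPM was computed from reads on genes, without the counter's totals of uncounted reads, and RPKM from the union of exons in GENCODE mouse release M1 on NCBIM37, the same assembly as mm9. A gene was taken as present above 3 counts. Folds between ganglia were ratios of summed counts over summed reads with 95% counting intervals, and shares had exact Clopper-Pearson intervals. Tests used edgeR 4.0.16 in R 4.3.3 (TMM, filterByExpr, quasi-likelihood test, Benjamini-Hochberg adjustment over all genes tested, adjusted p under 0.05) on the 8 libraries of a pair, or on all 16 for DRG against cranial ganglia. DESeq2 1.42.0, RLE size factors, no filter, all libraries in 1 fit, the replicate number as a block and leaving out each library were alternatives. The procedure was tested on simulated counts of 1 pair with a fixed dispersion and large changes, which does not show how it performs on libraries as variable as these. Promoter windows came from a RefSeq table on GRCm38.p6.

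The 10 genes, their stages and all gene lists were chosen with earlier results of these data known. Named besides the 10 were genes of a list called in any comparison, the 3 genes with the highest mean CPM of each list (where a result used them), and the 10 genes most like the set, with exceptions marked in the text. Of the marker lists, those of endothelial cells (12.3 to 840.2 CPM summed) and of eosinophils, basophils and mast cells (0 to 25.6 CPM) were checked as well. Of the genes in non-neutrophil lists, edgeR called *Cd3g*, *Mbp* (both lower) and *Cdh19* (higher) in T10-L1 DRG against TG, and *Avil* (higher) and *Fabp7* (lower) in DRG against cranial ganglia. Of the glial list, 1 gene and the sum of the list are not reported here.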

Additional observations from a re-analysis of the deposited data

Results flagged for a closer look

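Of 33 groups of 4 libraries examined for a single library far from the other 3, 5 held one whose gap to its nearest neighbour took nearly the whole range of the group. For independent groups of normally distributed values, chance alone flags about 1 group in 20. The groups here share libraries and many CPM values lie near 0, so that rate is not a measure for them. *Elane* was at 27.4 CPM (282 counts) in L3-L5 DRG library 1, while the other 3 libraries were at 0.0824 to 2.96 CPM. *Ltf* was at 30.4 CPM (220 counts) in NG/JG library 3, with at most 0.139 CPM in the other 3. This carried the sum of the 10 genes there to 47.3 CPM, against 0.569 to 7.23 CPM in the other NG/JG libraries. *Camp* in the same library was at 0.8293 CPM, which is 6 counts, with 0 in the other 3. *Ltf* in TG library 4 was at 0.878 CPM, which is 5 counts, with 0 in the other 3, so that both of these flags rest on a handful of reads. With 0 in the other 3 libraries the gap equals the range by construction, and the chance rate, which is for continuous values, does not hold for them.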

How the results depend on the processing

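The summed CPM of the 10 genes moved by less than 1 SD in every ganglion with TMM library sizes, with all reads of the file as the base and without *S100a8* and *S100a9*. The SD is wide, and with all reads as the base the means were 217 in T10-L1 DRG, 91.8 in L3-L5 DRG, 6.50 in TG and 4.33 in NG/JG. With 1 library left out at a time, the T10-L1 DRG mean ran from 428 to 776 CPM, the L3-L5 DRG mean from 190 to 406, the TG mean from 16.9 to 33.9 and the NG/JG mean from 2.81 to 18.4.

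Calls among the 45 other neutrophil genes depended on the method, and the cause was not tested. DESeq2 called 8 in T10-L1 DRG against NG/JG, 1 in L3-L5 DRG against NG/JG, 4 in T10-L1 DRG against TG, 4 in L3-L5 DRG against TG, 3 in TG against NG/JG and 11 in DRG against cranial ganglia, where edgeR called 0, 0, 2, 0, 0 and 3. Over all genes DESeq2 called 388, 334, 1947, 1469, 460 and 1099, and edgeR 4, 0, 758, 0, 6 and 208. With all 16 libraries in 1 fit, edgeR called 1 in L3-L5 DRG against NG/JG, 1 in T10-L1 DRG against TG, 1 in L3-L5 DRG against TG and 1 in TG against NG/JG. Over all 14236 genes tested, that fit called 83, 238, 206 and 484 in the same order. Leaving out 1 library gave 0 to 4 in T10-L1 DRG against TG, 0 to 2 in L3-L5 DRG against TG, 0 to 1 in TG against NG/JG, 0 to 4 in DRG against cranial ganglia and 0 in the other pairs. A replicate block in the model left 0 calls in T10-L1 DRG against TG and 0 in DRG against cranial ganglia. Over all genes it left 0 of 12914 and 5 of 14236, so that a count of 0 there does not set the list apart. Same-numbered libraries are not said to share animals, and their mean correlation of deviations ran from 0.0083 to 0.107, with 3 of 4 numbers above 0.1 in L3-L5 DRG with T10-L1 DRG, 2 of 4 in NG/JG with L3-L5 DRG and no pair of ganglia above 0.1 for all 4. They were therefore treated as sharing only a number.

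The comparison of DRG with cranial ganglia, the share of *Ngp*, *Camp* and *Ltf* and the share of the 5 specific granule genes took their alternatives after the data had been seen. With RPKM in place of reads, the specific granule share was 23.3% in T10-L1 DRG, 19.9% in L3-L5 DRG and 78.5% in NG/JG, the share of *Ngp*, *Camp* and *Ltf* was 21.9% in T10-L1 DRG, and that of *Mpo* and *Elane* was 0.372% in NG/JG. Without *S100a8* and *S100a9* in the denominator, the specific granule share was 85.9% in T10-L1 DRG, 84.4% in L3-L5 DRG and 36.0% in TG, and that of *Ngp*, *Camp* and *Ltf* was 76.9%, 55.3% and 0.521%. Without 1 library in turn, the azurophil share was 1.38% to 5.12% for L3-L5 DRG, with 0.0139% to 0.0665% for T10-L1 DRG. Of the 10 genes most like the set, 6 stayed with a pseudocount of 0.1, 3 with Spearman's rank correlation and 4 to 10 with a library left out.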
